A study of Homo sapiens with 6 samples.

Results

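Protocadherins are cadherin-type adhesion proteins of the cell surface, and 62 of their genes were found among the 20356 rows of the series table by a symbol beginning with PCDH, with genes of the sex chromosomes left out. They comprised 15 genes of the alpha cluster, 16 of the beta cluster and 21 of the gamma cluster of chromosome 5, and 10 genes outside the clusters. Expression was measured by RNA sequencing in H1975, a human lung adenocarcinoma cell line with mutant EGFR, in 3 libraries of the parental cells and 3 of a derivative resistant to osimertinib, H1975 OR. Osimertinib inhibits mutant EGFR. Both were cultured in RPMI-1640 with serum, the parental cells with no drug named and the derivative in 1 µM osimertinib, so resistance and exposure to the drug cannot be told apart. It is the only resistant line, and no source used here says whether it is a clone. The series design calls the 3 libraries of a group biological replicates.

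The clustered protocadherins are known above all from neurons, where each cell expresses a small combination of them and where contacts between like molecules on neighbouring membranes serve self-recognition. In the alpha and gamma clusters each gene is a variable first exon with its own promoter, spliced to constant exons that the whole cluster shares, whereas each beta gene is a single coding exon of its own. Promoter choice depends on DNA looping by CTCF and cohesin and on DNA methylation, and in epithelial tumours stretches of these clusters are known to be methylated. The non-clustered protocadherins, among them PCDH1 of airway epithelium, are single genes with their own regulation.

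Promoter sequences are shown first because the clustered genes are chosen for expression at the promoter and share an element there. RefSeq windows of 300 bases, 250 before to 50 after an annotated start (GRCh38.p14), were found for 53 of the 62 genes. In each cluster the word of 9 bases found in the windows of most genes was taken, on the gene's own strand and after the windows had been read. It was GATGTCGCT in 9 of 13 alpha genes, GGTGGCGCT in 12 of 13 beta genes and GCGCCGCTG in 9 of 19 gamma genes. Searched on both strands, these words occurred in 0.105%, 0.501% and 1.28% of all 35116 windows, but a word chosen as the commonest of a cluster must be frequent there. The 3 words share the letters CGCT, the core of an element known from these promoters. The stretches printed here end before the annotated start, all lie on the plus strand, and capitals mark the word. The alpha set sets genes that were higher in the resistant line (PCDHA4, PCDHA7) beside genes that were lower (PCDHA6, PCDHA10) and one that did not pass the test (PCDHA1).
PCDHA1 (chr5:140786062-140786135): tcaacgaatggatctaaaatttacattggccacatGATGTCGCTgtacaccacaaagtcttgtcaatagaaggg
PCDHA4 (chr5:140806955-140807028): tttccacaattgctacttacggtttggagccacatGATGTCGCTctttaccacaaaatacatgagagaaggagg
PCDHA6 (chr5:140827873-140827946): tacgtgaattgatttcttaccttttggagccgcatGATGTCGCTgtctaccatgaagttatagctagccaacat
PCDHA7 (chr5:140834148-140834221): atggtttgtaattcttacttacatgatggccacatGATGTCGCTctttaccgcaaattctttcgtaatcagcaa
PCDHA10 (chr5:140855817-140855890): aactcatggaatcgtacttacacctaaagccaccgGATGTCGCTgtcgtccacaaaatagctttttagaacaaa
The beta set holds PCDHB5, the only tested beta gene that was lower, beside 4 that were higher.
PCDHB2 (chr5:141094520-141094593): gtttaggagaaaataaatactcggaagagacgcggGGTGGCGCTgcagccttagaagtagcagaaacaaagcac
PCDHB5 (chr5:141135155-141135205): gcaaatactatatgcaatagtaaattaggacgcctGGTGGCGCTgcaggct
PCDHB12 (chr5:141208619-141208692): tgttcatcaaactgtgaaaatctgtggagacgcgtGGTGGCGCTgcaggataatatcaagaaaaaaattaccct
PCDHB13 (chr5:141213841-141213914): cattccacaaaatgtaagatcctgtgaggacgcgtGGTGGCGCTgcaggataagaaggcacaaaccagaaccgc
PCDHB14 (chr5:141223239-141223312): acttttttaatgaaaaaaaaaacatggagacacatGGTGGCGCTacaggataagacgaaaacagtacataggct
The gamma set holds PCDHGB4 and PCDHGA8, which were higher, PCDHGA10, which was lower, and PCDHGB6, which did not pass.
PCDHGB4 (chr5:141387594-141387667): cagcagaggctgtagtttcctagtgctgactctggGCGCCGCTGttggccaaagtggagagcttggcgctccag
PCDHGA8 (chr5:141392545-141392618): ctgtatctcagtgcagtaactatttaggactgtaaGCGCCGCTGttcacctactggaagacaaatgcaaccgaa
PCDHGB6 (chr5:141407901-141407974): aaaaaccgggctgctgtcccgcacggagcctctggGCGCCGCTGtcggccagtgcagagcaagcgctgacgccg
PCDHGA10 (chr5:141412908-141412981): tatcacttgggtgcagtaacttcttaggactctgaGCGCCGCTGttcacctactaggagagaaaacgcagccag
The word was present in genes that moved either way. All 8 tested beta genes that were higher held it, and so did the 1 that was lower. In the alpha cluster 4 of the 5 higher genes held it, as did both lower genes that have a window and PCDHA1. In the gamma cluster it was in 2 of 7 higher genes with a window and 1 of 2 lower ones. A missing match says only that these letters are not in that window.

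Libraries of a line resembled each other more than those of the other line, with rank correlations of 0.9947 to 0.9962 within and 0.8456 to 0.8538 between lines. FPKM is fragments per kilobase of transcript, scaled to the fragments mapped, and the depth in reads behind each value is unknown here. In bulk samples fewer cells of a type and less RNA per cell cannot be told apart. Because each group is 1 line, p-values measure the spread between its libraries. Of 10 epithelial markers of lung adenocarcinoma 8 were tested and 7 of these fell, where 38.1% of all tested genes were lower. The sum of the 10 was 2989 to 3507 FPKM in the parental and 929 to 1005 FPKM in the resistant libraries, and the cell adhesion gene EPCAM went from 211 ± 15.6 to 1.02 ± 0.237 FPKM. Markers of neurons, where clustered protocadherins are best known, were scarce: 8 of 9 averaged below 1 FPKM in each line, 2 were at 0 in every library, and the sum was 4.61 to 5.09 FPKM in the parental and 2.34 to 2.81 FPKM in the resistant libraries. Of the other lists, the sums were 9.73 to 10.6 FPKM in the parental and 8.37 to 9.38 FPKM in the resistant libraries for glia. They were 11.8 to 12.8 FPKM in the parental and 17.3 to 20.7 FPKM in the resistant libraries for neuroendocrine cells and 2.44 to 2.97 FPKM in the parental and 18.1 to 22.0 FPKM in the resistant libraries for fibroblasts. For leukocytes the sum was 24.1 to 27.6 FPKM in the parental and 70.4 to 80.3 FPKM in the resistant libraries. The part of any of these in the protocadherin results was not tested.

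Protocadherin expression was low in both groups but not the same. The clustered genes summed to 59.2, 60.1 and 60.6 FPKM in H1975 against 94.8, 99.2 and 102 in H1975 OR, a ratio of means of 1.64. The sums were not tested. Most of the difference lay in the beta cluster, whose sum differed by 22.7 FPKM, against 13.1 for gamma and 2.88 for alpha, and the non-clustered PCDH1 and PCDH7 fell. A gene was tested, with limma on log2(FPKM + 1), where one line or the other averaged 1 FPKM or more. Fold changes are on that scale, on which low genes appear to change less than they do. Of the 32 protocadherin genes that met this level 21 were higher, 8 lower and 3 did not pass an FDR of 0.05. Over all 12107 tested genes 78.0% passed, 39.9% higher and 38.1% lower, and among those whose larger mean lay between 1 and 10 FPKM 42.3% were higher and 32.9% lower. The median log2 fold change was 0.54 over the 32 genes and 0.01 over all.

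The level itself bears on these counts, because 7 of the 32 genes met it in resistant cells only and 4 in parental cells only. For such genes the direction of the difference in means was fixed by the level, although a pass in the test was not. Of the 21 that averaged 1 FPKM or more in each line 14 were higher and 4 lower, against 38.7% higher and 37.2% lower among all genes at that level. Without any level, the 3 resistant libraries lay above the 3 parental ones for 34 of all 62 members and below them for 11, against 30.2% and 28.4% of all rows of the table, and the groups overlapped for the other 17. Over all tested genes 79.8% had groups that did not overlap. Chromosome 5 as a whole also leaned upward, and its part in the cluster result was not tested: of its 526 other tested genes 53.0% were higher and 24.1% lower, with a median of 0.21.

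**Figure D1:**
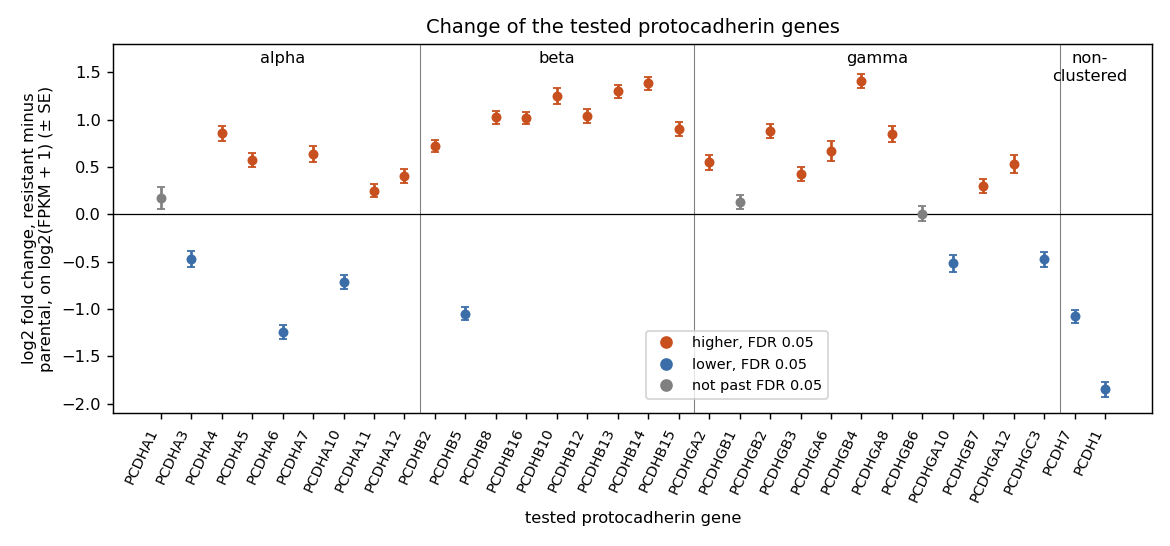
Log2 fold change (resistant minus parental, on log2(FPKM + 1)) of the 32 tested protocadherin genes, with bars for the SE, in chromosomal order within each class. Points for 8 of 9 beta genes lie above 0, alpha genes lie on both sides, and PCDH7 and PCDH1 lie below.

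The beta cluster (5:140430979-140627799, GRCh37) had the largest difference of the 3 clusters in sum. Its level was 17.3, 17.2 and 17.6 FPKM in H1975 against 38.5, 40.3 and 41.3 in H1975 OR, so that the means, 17.4 ± 0.234 and 40.0 ± 1.43 (SD, n = 3 per group), differed by 2.30 times. Of 9 tested beta genes 8 were higher and 1 was lower. PCDHB10 and PCDHB12 met the tested level in resistant cells only, so their means could only be higher there. Of the 7 that averaged 1 FPKM in each line 6 were higher, against 38.7% of all such genes. Of the same 7 genes 4 passed with a log2 fold change of 1 or more, against 9.95% of all 12107 tested genes. That wider set also holds genes that met the level in a single line, so the shares are not on the same footing. All beta proteins carry an ectodomain of cadherin repeats but none has the constant tail of the other clusters.

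By mean FPKM the most abundant beta gene in both groups was PCDHB8 (5:140557371-140560081), at 3.58, 3.32 and 3.51 FPKM in H1975 against 7.87, 8.49 and 7.93 in H1975 OR (log2 fold change 1.02 ± 0.0649 SE, adjusted p = 1.6e-08). Its neighbour PCDHB16 (5:140560980-140565793) stood at 2.77, 2.83 and 2.87 FPKM in H1975 against 6.77, 6.68 and 6.73 in H1975 OR (log2 fold change 1.01 ± 0.0626 SE, adjusted p = 1.3e-08). Both rose by about the same factor, 2.33 and 2.38 times in mean FPKM, and the libraries of a group lay close together. PCDHB13 (5:140593509-140596993) was at 2.17, 2.13 and 1.85 FPKM in H1975 against 6.24, 6.69 and 6.59 in H1975 OR (log2 fold change 1.30 ± 0.0708 SE, adjusted p = 3.9e-09). Of the 100-base words of PCDHB8 transcripts in GENCODE v29, 25.7% occur in another of the 62 protocadherin genes, most of them in PCDHB13. The split of reads between PCDHB8 and PCDHB13 is therefore uncertain. For the other beta genes among the 62 this share was between 0% and 15.1%. Genes outside the 62, PCDHB9 of this cluster among them, were not compared, so these shares may be too low.

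The largest beta change on the log2 scale was that of PCDHB14 (5:140602931-140605858), from 1.10 ± 0.115 to 4.48 ± 0.0786 FPKM (log2 fold change 1.38 ± 0.0716 SE, adjusted p = 2.4e-09), with 0.973, 1.14 and 1.19 in the parental and 4.39, 4.53 and 4.52 in the resistant libraries. PCDHB15 was at 1.14, 1.11 and 1.12 FPKM in H1975 against 2.80, 2.80 and 3.33 in H1975 OR, and PCDHB2 at 2.54, 2.34 and 2.41 FPKM in H1975 against 4.59, 4.67 and 4.71 in H1975 OR. In none of these genes did the groups overlap. The largest ratios belonged to genes that were nearly silent in parental cells. PCDHB12 (5:140588269-140591696) went from 0.112, 0.152 and 0.133 to 1.19, 1.37 and 1.44 FPKM, a ratio of means of 10.0, and PCDHB10 (5:140571942-140575215) from 0.402, 0.259 and 0.345 to 1.94, 2.05 and 2.56 FPKM, a ratio of 6.52. Both reached the tested level through the resistant libraries alone.

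PCDHB5 (5:140514800-140517703), about level with PCDHB8 in parental cells, went the other way. It was at 3.10, 3.31 and 3.51 FPKM in H1975 against 1.08, 1.09 and 1.09 in H1975 OR (log2 fold change -1.05 ± 0.0701 SE, adjusted p = 2.7e-08), 3.05 times lower, and ranked 9 among the 16 beta genes of resistant cells. Its share of the summed beta level was 19.1% ± 1.05 of the parental sum and 2.71% ± 0.0812 of the resistant sum. The genes on either side of it in the table, PCDHB4 and PCDHB6, were low throughout, at no more than 0.144 and 0.177 FPKM. Over the whole cluster all 3 resistant libraries lay above all 3 parental ones in 12 of the 16 genes, against 30.2% of all rows of the table, and below them in PCDHB5.

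The remaining beta genes were below the tested level. PCDHB11 was at 0.144, 0.243 and 0.195 FPKM in H1975 against 0.740, 0.846 and 0.971 in H1975 OR, and PCDHB3 at 0.136, 0.0920 and 0.123 FPKM in H1975 against 0.411, 0.471 and 0.711 in H1975 OR, the groups apart in both. PCDHB7 and PCDHB17, of which the latter is annotated as a pseudogene, peaked at 0.255 and 0.122 FPKM, and PCDHB1 was listed at 0 in all 6.

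**Figure D2:**
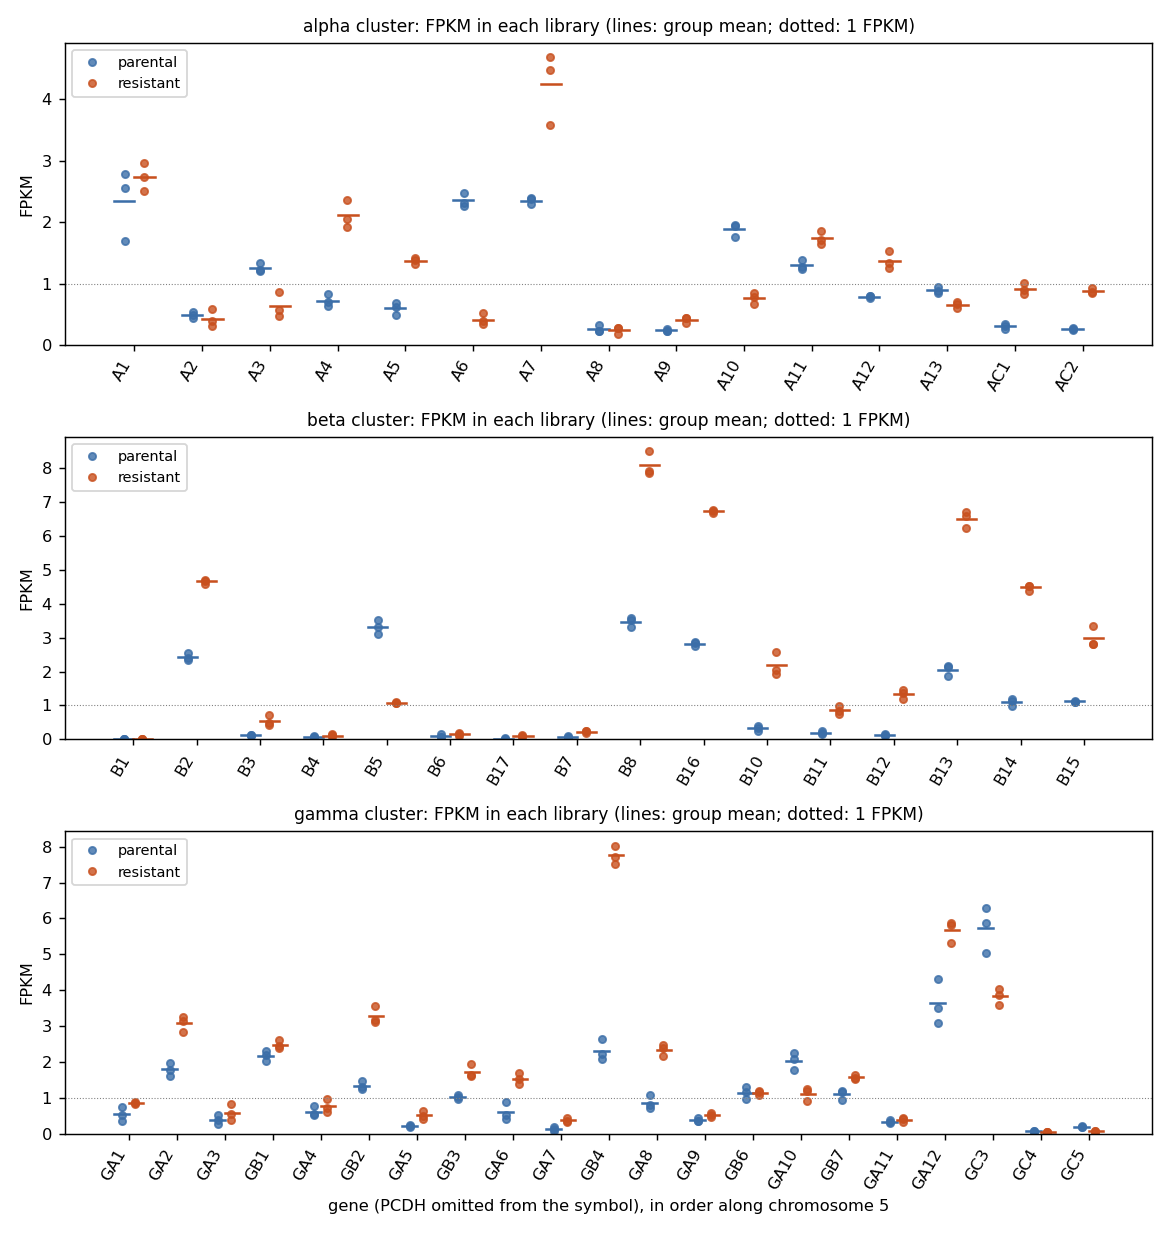
FPKM of each clustered protocadherin gene in each library, in order along chromosome 5, with points for the 3 parental and 3 resistant libraries and lines for the group means. Resistant points stand above parental ones for PCDHB8 to PCDHB15 and far above for PCDHGB4, and below them for PCDHA6, PCDHA10, PCDHB5 and PCDHGC3.

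In the alpha cluster (5:140165876-140391936) the sum differed least while its members changed places. It was 15.2, 16.0 and 17.0 FPKM in H1975 against 17.5, 19.1 and 20.2 in H1975 OR, a ratio of means of 1.18. Of 9 tested alpha genes 5 were higher, 3 lower and 1, PCDHA1, did not pass, beside 39.9% higher and 38.1% lower of all tested genes. All 3 lower genes met the tested level in parental cells only, and 3 of the 5 higher ones (PCDHA4, PCDHA5, PCDHA12) in resistant cells only. For these 6 the direction of the difference in means was therefore fixed. Of the 3 alpha genes that averaged 1 FPKM in each line 2 were higher and 0 lower in limma, with no negative fold change among the 3 at any p. Among all genes at that level 38.7% were higher and 37.2% lower. Alpha proteins share a cytoplasmic tail and differ in the extracellular part that recognises a partner. By gene model 14 of the 15 alpha genes end at the same base. A median of 45.6% of an alpha gene's 100-base words occur in another of the 62 protocadherin genes. No source used here says how the deposited values divide reads of these constant exons, and differences between alpha or gamma genes carry that uncertainty.

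PCDHA6 (5:140207563-140391929) had the largest alpha change, with 2.26, 2.48 and 2.32 FPKM in H1975 against 0.344, 0.387 and 0.514 in H1975 OR (log2 fold change -1.25 ± 0.0741 SE, adjusted p = 9.1e-09). It was 5.66 times lower in resistant cells and ranked 13 of the 15 genes there. In parental cells it stood level with PCDHA7 and PCDHA1 at the head of the cluster, first in none of the 3 libraries. It held 14.7% ± 0.921 of the parental sum and 2.18% ± 0.321 of the resistant sum. PCDHA10 (5:140235595-140391929) was at 1.94, 1.75 and 1.96 FPKM in H1975 against 0.842, 0.784 and 0.670 in H1975 OR (log2 fold change -0.71 ± 0.0728 SE, adjusted p = 1.6e-06), and PCDHA3 (5:140180783-140391929) at 1.20, 1.23 and 1.34 FPKM in H1975 against 0.469, 0.577 and 0.859 in H1975 OR (adjusted p = 0.00037). These 3 genes, which met the tested level in parental cells only, were the tested alpha genes that fell. Their groups did not overlap, as was so for 79.8% of all tested genes.

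PCDHA7 (5:140213969-140391929) led the alpha cluster in resistant cells, at 2.37, 2.29 and 2.39 FPKM in H1975 against 3.58, 4.47 and 4.70 in H1975 OR (log2 fold change 0.64 ± 0.0861 SE, adjusted p = 1.9e-05), and held 14.7% ± 0.833 of the parental sum and 22.4% ± 1.67 of the resistant sum. PCDHA4 (5:140186659-140391929) had the largest increase of the tested alpha genes on the log2(FPKM + 1) scale, at 0.694, 0.630 and 0.828 FPKM in H1975 against 1.93, 2.37 and 2.05 in H1975 OR (log2 fold change 0.86 ± 0.0796 SE, adjusted p = 6.2e-07). PCDHA7 gained more in FPKM. The ratio of means of PCDHA4 was 2.95, against 2.30 for PCDHA5, at 0.490, 0.679 and 0.623 FPKM in H1975 against 1.32, 1.41 and 1.38 in H1975 OR. Each lay next to genes that fell: in table order PCDHA3 fell, PCDHA4 and PCDHA5 rose, PCDHA6 fell and PCDHA7 rose.

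Smaller increases were those of PCDHA12, at 0.791, 0.774 and 0.798 FPKM in H1975 against 1.33, 1.26 and 1.53 in H1975 OR (log2 fold change 0.41), and PCDHA11, at 1.24, 1.28 and 1.38 FPKM in H1975 against 1.72, 1.65 and 1.85 in H1975 OR (0.25). PCDHA1 was at 1.70, 2.56 and 2.78 FPKM in H1975 against 2.50, 2.73 and 2.96 in H1975 OR (adjusted p = 0.2), and its parental libraries were spread more widely than the means differed.

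PCDHAC1 and PCDHAC2, the C-type genes at the end of the cluster, are known to be expressed constitutively in neurons rather than by promoter choice. PCDHAC1 was at 0.267, 0.346 and 0.305 FPKM in H1975 against 0.902, 1.00 and 0.834 in H1975 OR, and PCDHAC2 at 0.267, 0.243 and 0.283 FPKM in H1975 against 0.852, 0.868 and 0.921 in H1975 OR. Both were about as much higher as PCDHA4, with ratios of means of 2.99 and 3.33, but stayed below the tested level. PCDHA13 was at 0.939, 0.851 and 0.876 FPKM in H1975 against 0.609, 0.698 and 0.674 in H1975 OR, without overlap, and PCDHA2, at 0.535, 0.445 and 0.489 FPKM in H1975 against 0.392, 0.310 and 0.591 in H1975 OR, overlapped. PCDHA8 and PCDHA9 peaked at 0.325 and 0.436 FPKM.

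**Figure D3:**
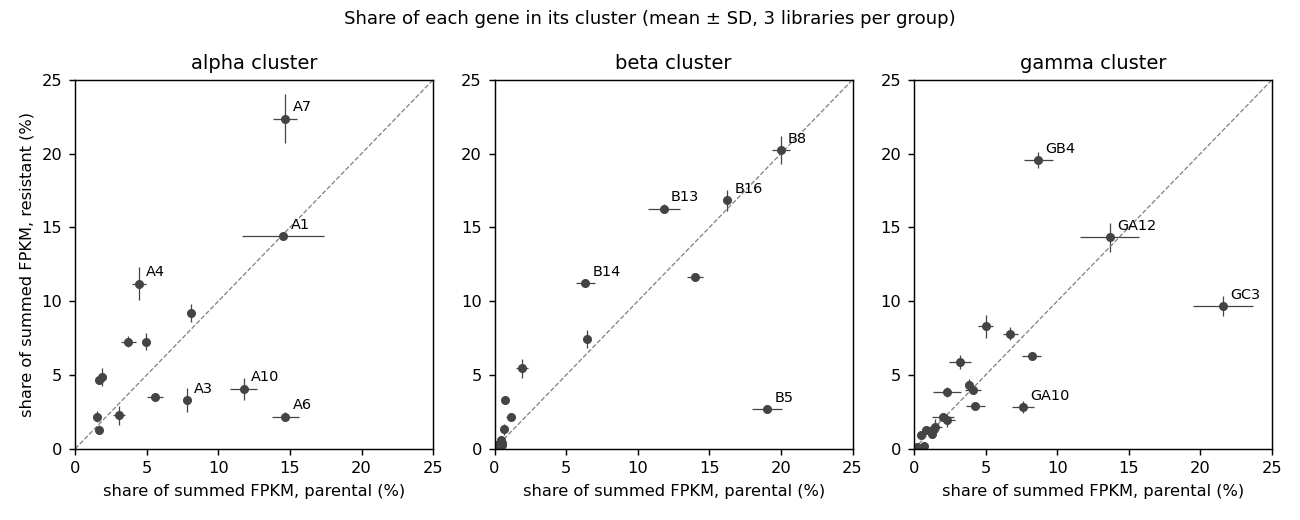
Share of the summed FPKM of its cluster held by each gene, parental on the x axis and resistant on the y axis, in percent, as mean ± SD of 3 libraries; the dashed line marks equal shares. PCDHA7 and PCDHGB4 lie above the line, PCDHA6, PCDHB5 and PCDHGC3 below it, and PCDHB8 and PCDHGA12 on or near it.

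In the gamma cluster (5:140710252-140892546) the summed level of the A and B types was higher and that of the C type lower in every resistant library than in any parental one. The summed level was 26.7, 27.0 and 26.0 FPKM in H1975 against 38.8, 39.8 and 40.3 in H1975 OR, a ratio of means of 1.49. The ratio was 1.54 for the 12 gamma A genes, 1.98 for the 6 gamma B genes and 0.657 for the 3 gamma C genes. The gamma C sum was nearly that of PCDHGC3 alone, which held 95.7% of it in parental and 97.5% in resistant cells. Of 12 tested gamma genes 8 were higher, 2 lower and 2 did not pass, beside 39.9% higher and 38.1% lower of all tested genes. PCDHGA6 and PCDHGA8 met the tested level in resistant cells only, so their means could only be higher there. Of the other 10 genes, which met it in each line, 6 were higher and 2 lower. Among all genes at that level 38.7% were higher and 37.2% lower. Gamma proteins also share a cytoplasmic tail, and 19 of the 21 gene models end at the same base.

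PCDHGB4 (5:140767452-140892546) had the largest increase, at 2.64, 2.22 and 2.07 FPKM in H1975 against 7.72, 7.52 and 8.03 in H1975 OR (log2 fold change 1.41 ± 0.0765 SE, adjusted p = 3.8e-09). It was the first gamma gene in all 3 resistant libraries, with 8.68% ± 1.03 of the parental sum and 19.6% ± 0.560 of the resistant sum. Its neighbour PCDHGA8 was at 0.712, 0.788 and 1.07 FPKM in H1975 against 2.39, 2.46 and 2.16 in H1975 OR (log2 fold change 0.85 ± 0.0845 SE, adjusted p = 1.2e-06). Of the 100-base words of PCDHGB4, constant exons included, 62.5% occur in another of the 62 protocadherin genes, the largest share of any gamma gene. Nearly all of these occur in PCDHGA8, and 49.7% of the words of PCDHGA8 occur in PCDHGB4. The split of reads between these neighbours is therefore uncertain, and their increases may not be separate.

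PCDHGB2 (5:140739703-140892546) was at 1.29, 1.24 and 1.46 FPKM in H1975 against 3.56, 3.17 and 3.12 in H1975 OR (log2 fold change 0.88 ± 0.0750 SE, adjusted p = 2.8e-07). PCDHGA2 was at 1.79, 1.97 and 1.62 FPKM in H1975 against 2.84, 3.26 and 3.15 in H1975 OR (log2 fold change 0.55), and PCDHGA12, the second gene of the cluster by level in both groups, at 3.51, 4.30 and 3.10 FPKM in H1975 against 5.81, 5.87 and 5.32 in H1975 OR (0.53). All libraries of the resistant cells exceeded all parental ones in these 3 genes. PCDHGA6 was at 0.527, 0.402 and 0.886 FPKM in H1975 against 1.38, 1.53 and 1.70 in H1975 OR (0.67), and PCDHGB3 at 1.07, 1.02 and 0.978 FPKM in H1975 against 1.60, 1.63 and 1.94 in H1975 OR (0.42). The smallest gamma increase that passed was that of PCDHGB7, at 1.19, 0.938 and 1.15 FPKM in H1975 against 1.65, 1.51 and 1.56 in H1975 OR (0.30, adjusted p = 0.00259).

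PCDHGC3 (5:140855580-140892542), a C-type gene that is broadly expressed outside the nervous system, was the leading gamma gene of the parental cells. It fell, at 6.29, 5.87 and 5.04 FPKM in H1975 against 3.87, 4.03 and 3.58 in H1975 OR (log2 fold change -0.48 ± 0.0806 SE, adjusted p = 0.00015), and its part of the cluster went from 21.6% ± 2.11 of the parental sum to 9.67% ± 0.683 of the resistant sum. PCDHGC4 and PCDHGC5 were lower without overlap as well, but at no more than 0.202 FPKM. PCDHGA10 (5:140792743-140892546) was the other gene that fell, at 2.08, 2.24 and 1.77 FPKM in H1975 against 0.923, 1.18 and 1.25 in H1975 OR (log2 fold change -0.52 ± 0.0867 SE, adjusted p = 0.00014).

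PCDHGB6 and PCDHGB1 did not pass. PCDHGB6 was at 0.958, 1.29 and 1.17 FPKM in H1975 against 1.07, 1.19 and 1.17 in H1975 OR (log2 fold change 0.01, SE 0.0777, adjusted p = 0.946), and PCDHGB1 at 2.20, 2.03 and 2.31 FPKM in H1975 against 2.38, 2.45 and 2.62 in H1975 OR (adjusted p = 0.105). PCDHGB6 overlapped between groups, while PCDHGB1 was higher in every resistant library by a margin that the test did not pass. Among gamma genes below the tested level, PCDHGA1 was at 0.352, 0.531 and 0.742 FPKM in H1975 against 0.874, 0.825 and 0.852 in H1975 OR and PCDHGA5 at 0.250, 0.184 and 0.217 FPKM in H1975 against 0.403, 0.490 and 0.638 in H1975 OR, both without overlap. PCDHGA9 was at 0.431, 0.355 and 0.348 FPKM in H1975 against 0.528, 0.582 and 0.463 in H1975 OR, also without overlap. PCDHGA4, at 0.522, 0.537 and 0.761 FPKM in H1975 against 0.594, 0.729 and 0.979 in H1975 OR, and PCDHGA3, at 0.268, 0.377 and 0.509 FPKM in H1975 against 0.378, 0.542 and 0.834 in H1975 OR, overlapped. PCDHGA7 and PCDHGA11 peaked at 0.433 and 0.427 FPKM.

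**Figure D4:**
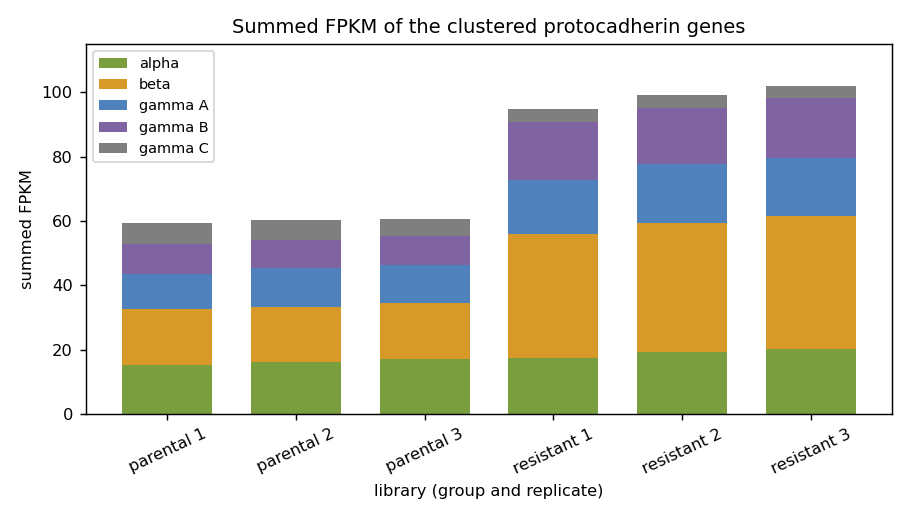
Summed FPKM of the alpha, beta, gamma A, gamma B and gamma C genes in each of the 6 libraries. The beta segment grows from about 17.4 to 40.0 FPKM on average, the alpha segment from 16.1 to 18.9, and the gamma C segment shrinks from 5.98 to 3.93.

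In all, 20 protocadherin genes had a mean between 0.1 and 1 FPKM in the higher group. When all genes from 0.1 FPKM were tested with a pseudocount of 0.1, a choice made after the data were seen, 11 of the 20 were higher, 2 lower and 7 did not pass. Of all 2268 genes in that range 35.1% were higher and 29.6% lower in the same fit. The 2 that were lower were PCDHA13 (log2 fold change -0.38, adjusted p = 0.022) and PCDHGC5 (-0.81, adjusted p = 0.0011), both named after their values were seen. The other 10 members were below 0.1 FPKM in both groups, 2 of them, PCDHB1 and PCDH20, listed at 0 in every library.

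Outside the clusters only PCDH1 and PCDH7 reached the tested level, and both fell by more than 1 on the log2 scale, as did 9.39% of all tested genes. PCDH7 met that level in parental cells only, so its mean could only be lower in resistant cells. This leaves PCDH1 as the 1 non-clustered gene at 1 FPKM in each line. PCDH1 (5:141232938-141258811, ENSG00000156453), a delta-type protocadherin of airway epithelium, was the most abundant protocadherin gene of the parental cells. It stood at 14.2, 13.8 and 13.8 FPKM in H1975 against 2.73, 3.13 and 3.64 in H1975 OR (log2 fold change -1.85 ± 0.0792 SE, adjusted p = 4.4e-10), 4.39 times lower. It lies on chromosome 5 beyond the gamma cluster, on the other strand, and moved against most of the clustered genes. PCDH7 (4:30722037-31148422, ENSG00000169851), a delta-type protocadherin known to bind protein phosphatase 1, was at 2.86, 2.94 and 2.72 FPKM in H1975 against 0.854, 0.776 and 0.833 in H1975 OR (log2 fold change -1.08 ± 0.0684 SE, adjusted p = 1.7e-08), 3.46 times lower. No library of one group came near the other in either gene. In resistant cells PCDHB8, PCDHGB4, PCDHB16, PCDHB13, PCDHGA12, PCDHB2, PCDHB14, PCDHA7, PCDHGC3 and PCDHGB2 all had a higher mean FPKM than PCDH1.

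PCDH12, an endothelial protocadherin, was at 0.204, 0.159 and 0.152 FPKM in H1975 against 0.374, 0.485 and 0.459 in H1975 OR, higher in each resistant library but under 0.5 FPKM. The other 7 non-clustered genes were at or near 0. PCDH8, PCDH9, PCDH10, PCDH15, PCDH17, PCDH18 and PCDH20 did not exceed 0.0263 FPKM in any library. The delta-2 members among them, PCDH8, PCDH10, PCDH17 and PCDH18, are neural protocadherins that are often methylated in carcinomas. Of 5 endothelial markers 4 averaged below 1 FPKM in each line, with a sum of 0.679 to 0.851 FPKM in the parental and 1.19 to 1.53 FPKM in the resistant libraries.

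**Figure D5:**
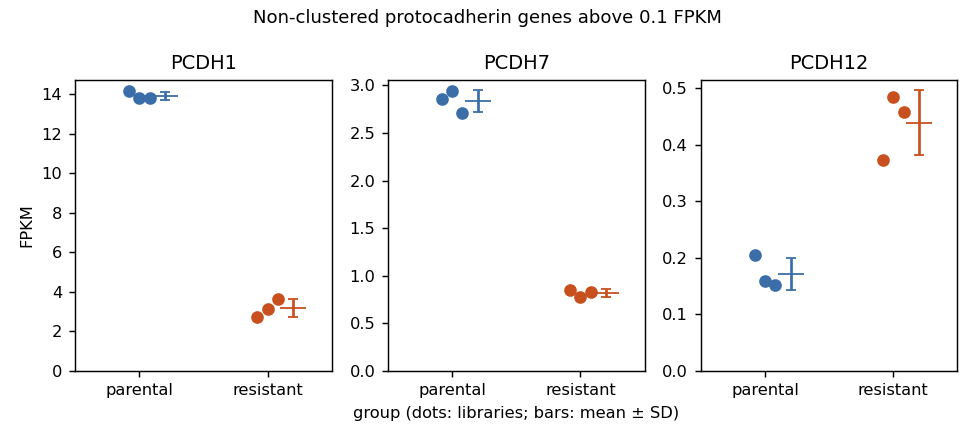
FPKM of PCDH1, PCDH7 and PCDH12 in each library, with bars for mean ± SD and a separate axis for each gene. PCDH1 and PCDH7 are lower and PCDH12 is higher in all 3 resistant libraries.

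Of 30 tested genes within 1 Mb of the clusters 14 were higher and 11 lower, with a median log2 fold change of 0.14, which is near the 39.9% higher and 38.1% lower of all tested genes. TAF7 (5:140698057-140700330), a subunit of the general transcription factor TFIID, between the beta and gamma clusters, rose from 53.5 ± 2.38 to 73.1 ± 1.95 FPKM (0.44). SLC25A2, a mitochondrial carrier gene in the same interval, averaged 0.0249 and 0.0206 FPKM. AC005609.1, on the minus strand within the alpha cluster, averaged 0.825 and 0.630 FPKM, and without known strand use its reads cannot be told from those of alpha genes. Just beyond the gamma cluster the formin gene DIAPH1 (5:140894583-140998622) fell from 69.6 ± 4.25 to 35.4 ± 1.58 FPKM (-0.96). On the alpha side CD14 (5:140011313-140013286), a lipopolysaccharide receptor, had a log2 fold change of 2.93, the EGFR ligand gene HBEGF one of 2.08 and the adaptor gene APBB3 one of 1.15.

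Among 20 tested genes of chromosome architecture, DNA methylation and silencing 6 were higher, 9 lower and 5 did not pass, with a median of -0.11, where 39.9% of all tested genes were higher and 38.1% lower. A count near these shares is no result about the list. The insulator protein gene CTCF was at 20.9, 21.2 and 18.8 FPKM in H1975 against 16.3, 17.2 and 15.4 in H1975 OR (log2 fold change -0.30). The cohesin subunit gene RAD21 (8:117858174-117887105) fell from 102 ± 8.02 to 47.4 ± 1.33 FPKM (log2 fold change -1.09 ± 0.0687 SE, adjusted p = 1.6e-08), while the cohesin loader gene NIPBL rose (0.47). Of the other listed genes of cohesin and its partners, SMC3 (-0.29), STAG1 (-0.27) and PDS5B (-0.75) fell and PDS5A rose (0.18). MAU2 and WAPAL did not pass. TRIM28 (19:59055458-59062089), the KAP1 corepressor, fell from 423 ± 19.3 to 157 ± 10.1 FPKM (log2 fold change -1.43 ± 0.0689 SE, adjusted p = 1.3e-09), and the deacetylase gene HDAC1 by 1.01 on the log2 scale. The maintenance DNA methyltransferase gene DNMT1 rose from 51.1 ± 3.70 to 90.1 ± 5.66 FPKM, the de novo gene DNMT3A rose (0.54) and DNMT3B fell (-0.76). Of the DNA demethylation genes TET2 rose (0.83), TET3 did not pass and TET1 was below the tested level.

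Of 13 tested genes of protocadherin cleavage and signalling 7 were higher and 6 lower, with a median of 0.18, beside the same 39.9% and 38.1% of all tested genes. The sheddase gene ADAM10, whose product cuts clustered protocadherins, rose (0.55). FYN (6:111981535-112194655), a kinase reported downstream of alpha protocadherins, rose from 3.13 ± 0.553 to 19.9 ± 0.641 FPKM, and ABI1 (10:27035522-27150016), of the WAVE actin complex that some protocadherins recruit, from 11.5 ± 0.873 to 48.2 ± 0.0746 FPKM. Of the other listed genes of that complex, WASF1 rose (0.92), while NCKAP1 (-0.66), CYFIP1 (-0.28) and WASF2 (-0.23) fell. CYFIP2 and WASF3 were below the tested level. PPP1CA, the phosphatase gene of the PCDH7 partner, fell (-0.69). Of 6 tested genes of a list of the FAT, DCHS, CELSR, CDHR and calsyntenin families and the kinase gene FJX1, 3 were higher, FJX1 among them, and 2 lower. FAT1 (4:187508937-187647876), a giant atypical cadherin, rose from 13.0 ± 0.984 to 33.5 ± 1.34 FPKM, and CELSR1, a planar polarity cadherin, fell from 9.51 ± 0.0849 to 3.44 ± 0.359 FPKM.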

How the data were processed

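The 6 libraries were grouped by sample title into parental and resistant cells. The submitters' processing notes name GRCh37 and DESeq, without a role; no source used here gives the aligner, quantifier, annotation or strand use. The authors deposited FPKM in a series table and, per the file headers, FPKM, TPM and coverage (a signal per gene) in a file per library. Coverage was not used. Series and library values of every protocadherin gene agreed within 0.00001 FPKM. A listed 0 need not mean no expression. Genes averaging 1 FPKM or more in one line or the other were fitted with limma 3.58.1 (R 4.3.3) on log2(FPKM + 1), with trend and robust moderation, two-sided, Benjamini-Hochberg adjusted over all 12107 genes at an FDR of 0.05. Adjusted p-values are from limma throughout; this fit was also tested on simulated data. Members, gene lists and markers were chosen with earlier results of these data known. Every member of at least 1 FPKM was to be named, lower ones if a library reached 0.5 FPKM; members below that are named after their values were seen. Of listed related genes and neighbours, the 4 largest changes were to be named, the former of at least 1 on the log2 scale; others named were chosen after their values were seen. Of the listed genes, 4 were not found in the table. Expression coordinates are GRCh37, 1-based; promoter windows are from RefSeq (GRCh38.p14). Transcript words came from GENCODE v29, in which 1 gene was matched by symbol, and were compared among the 62 genes only.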

Additional observations from a re-analysis of the deposited data

Results flagged for a closer look

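Of protocadherin rows that only the library files list, 2 were above the parental level in all 3 resistant libraries. The same held for 30.2% of all rows of the series table. Among the other rows PCDHB19P, PCDHGB8P and PCDH8P1 overlapped between groups. PCDHA14, PCDH9-AS1, PCDH9-AS2, PCDH9-AS3 and PCDH9-AS4 were listed at 0 in every library. PCDHB9 (5:140566893-140571111), a beta gene between PCDHB16 and PCDHB10, was at 0.735, 0.598 and 0.658 FPKM in H1975 against 2.26, 2.27 and 2.34 in H1975 OR, with a mean of 2.29 FPKM in resistant cells. PCDHB18 (5:140613938-140617101), a pseudogene of the beta cluster, was at 0.0658, 0.0765 and 0.0783 FPKM in H1975 against 0.365, 0.420 and 0.308 in H1975 OR, with a mean of 0.365 FPKM in resistant cells. Neither entered a test, and groups of 3 were not screened for outlying libraries.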

How the results depend on the processing

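Of the 32 tested protocadherin genes 31 kept their direction and their side of the FDR of 0.05 in every alternative in which they were tested: pseudocounts of 0.1 and 0.5, a filter at 0.1 FPKM, no filter, 1 FPKM in both groups, median-of-ratios scaling, TPM, plain limma without trend or robust moderation, the replicate block, each library left out, and a filter and pseudocount of 0.1 together, which was added after the data were seen. PCDHGB6, which did not pass, changed sign at -0.057 without parental replicate 1, -0.01 without resistant replicate 2 and -0.002 without resistant replicate 3, and ranged up to 0.057 with a library left out. Counts moved with the filter, which changes how many genes are tested. Genes that were higher numbered 32 (alpha 8, non-clustered 1) with the filter at 0.1 FPKM, with or without the smaller pseudocount, and 33 (alpha 8, non-clustered 1) with no filter. With no filter 4 gamma genes were lower. With 1 FPKM required in both groups 2 alpha genes were higher and 0 lower, the 3 alpha genes that fell being no longer tested (in limma, 0 of those tested also fell at an unadjusted p under 0.05), and 4 protocadherin genes in all and 1 non-clustered gene were lower. Leaving out each library changed no count of protocadherin calls (21 higher, 8 lower). The summed level, resistant minus parental, ranged from 2.26 to 3.60 FPKM for alpha, 22.0 to 23.4 for beta and 12.7 to 13.5 for gamma. Same-numbered libraries deviated together with r of -0.14, 0.08 and 0.10, so no pairing by number was seen. With 3 libraries per group these values cannot settle whether the numbers stand for a pairing. With the replicate block 21 genes were higher and 8 lower, as without it. Depth in reads is unknown, so values under 0.1 FPKM carry no stated counting error.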

Other observations

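Of the related cadherin genes 12 were below the tested level, and values of 3 are given here, chosen after they were seen. FAT4, an atypical cadherin, was at 0.0209, 0.00598 and 0.0384 FPKM in H1975 against 0.689, 0.604 and 0.875 in H1975 OR. The brush border protocadherin CDHR2 was at 0.875, 0.610 and 0.566 FPKM in H1975 against 0.103, 0.127 and 0.164 in H1975 OR, and FAT2, of squamous epithelia, at 0.448, 0.377 and 0.433 FPKM in H1975 against 0.0271, 0.0403 and 0.0499 in H1975 OR. In each of the 3 the groups did not overlap, but they were picked with their values known. Of the rest of the 12, DCHS1, DCHS2, CELSR2, CDHR5 and CLSTN2 did not overlap, while FAT3, CDHR1, CDHR3 and CDHR4 did. The 3 resistant libraries lay above the 3 parental ones for 30.2% of all rows of the series table and below them for 28.4%.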
